A study of Drosophila melanogaster with 48 samples.

Results

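The 40S pool of a polysome gradient holds the RNA that sediments with free small ribosomal subunits, and its content at 72 h after a pulse of bam was compared with that at 24 h in Drosophila melanogaster testes. The comparison used 4 of the 48 libraries of the study, 2 for 40S at 24 h and 2 for 40S at 72 h, chosen by the labels of pool and time. All flies were bam-/-;hsBam, raised at 22 °C until the pupal stage, given a 37 °C heat shock that lasted 30 min, and afterwards held at 25 °C. They therefore lack the endogenous bam function and carry a bam copy under a heat shock promoter, which is not limited to germ cells. The labels name 2 biological replicates for each group and do not say how many animals were pooled in a library. Unshocked animals and flies with a working bam gene were not analysed here. Since every group received the same shock, differentiation, ageing of the flies and the end of the heat shock response cannot be told apart.

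Bam ends the mitotic divisions of male germ cells and lets them become spermatocytes. Without it the testis fills with dividing spermatogonia, and a pulse of heat shock Bam starts their differentiation together. Spermatocytes then switch on a large testis-specific transcription programme, driven by the tMAC complex and by testis variants of the TAF proteins of TFIID, and store many of the messages for later use. In translation initiation the 40S subunit, loaded with initiation factors, is brought to the capped 5′ end of a message by the eIF4F complex and scans to the start codon, where the 60S subunit joins to form the 80S ribosome. A 40S pool can hold messages bound by a single small subunit and RNA-protein particles of like size, and the gradient does not separate these. As the material is bulk tissue, fewer cells of a type and less RNA per cell cannot be told apart in any level below.

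The 40S libraries held 5.152 and 7.579 M listed reads at 24 h and 5.541 and 4.636 M at 72 h, and listed 7942, 8628, 9302 and 9252 genes in that order. Levels are scaled counts of listed reads (CPM), and paired values below are replicate 1 and replicate 2. A gene with no site of at least 10 reads in a library is called unlisted there. Over 9623 genes, Pearson's r of log levels was 0.93 between the 24 h replicates, 0.884 between the 72 h replicates and 0.331 to 0.423 between the times. That is a description across genes, which are not independent replicates. The transcript CG18628 stood apart by replicate number, with 3921 and 68179 CPM at 24 h and 639 and 37938 CPM at 72 h. The bam transcript itself had 25.7 and 105 CPM at 24 h and 26.2 and 18.5 CPM at 72 h, groups that overlap (log2 change -1.25, adjusted p = 0.313).

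The RNA content of the 40S pool changed widely between the times. Of 10777 genes tested, 3547 (32.9%) passed an adjusted p of 0.05 (limma with Benjamini-Hochberg adjustment), 2434 higher (22.6%) and 1113 lower (10.3%) at 72 h, with a median log2 change of 0.04 over all genes. The genes called higher together made up 1.2% and 1.2% of the CPM at 24 h and 25.7% and 27.6% at 72 h. Those called lower went from 15.9% and 13.8% to 3.7% and 4.4%. Both sets were picked by these same 4 libraries, so the direction of the 2 shifts follows from the choice. The rises were also the larger changes, with a median log2 change of 4.58 against -2.23 among the falls. The libraries of the 2 times did not overlap in 6851 genes (63.6%). Of the genes called higher, 1320 were unlisted in both 24 h libraries and 532 were listed in all 4, while 731 of the genes called lower were listed in all 4. Calls in each fit that left out 1 of the 4 libraries held for 1798 of the higher and 198 of the lower genes. The share of calls that were higher depended on the scaling, at 68.6% with trimmed means and 82.8% with median-of-ratios scaling (2857 higher and 595 lower), where the median over all genes was 0.47.

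**Figure D1:**
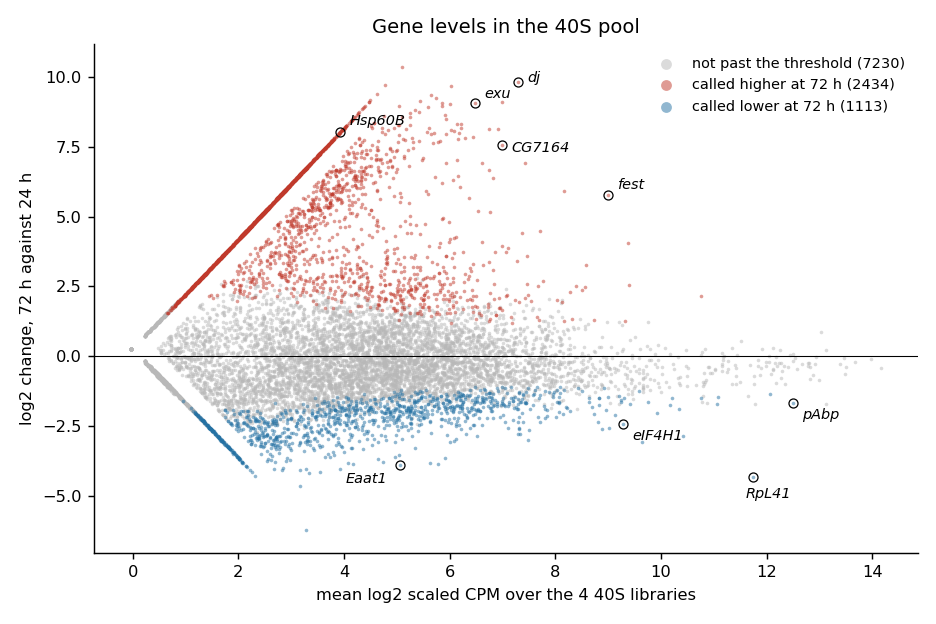
Log2 change of the 40S level from 24 h to 72 h (vertical axis) against the mean log2 CPM of the 4 libraries (horizontal axis) for the 10777 genes tested, with the 2434 genes called higher and the 1113 called lower coloured. The rises reach further from 0 than the falls, and many rise from a 24 h level at which they were unlisted.

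The 12 largest rises took in 6 named genes of testis or sperm and 6 uncharacterised ones. The values of don juan (dj), which encodes a sperm tail protein, were unlisted and 25.8 CPM at 24 h against 7124 and 3365 CPM at 72 h (log2 change 9.82 ± 1.82 SE, adjusted p = 7.47e-05). Both 72 h libraries stood far above both 24 h ones. The gene betaTub85D, which encodes the testis β-tubulin of the meiotic spindle and the sperm tail, was unlisted and 3.71 CPM at 24 h and reached 1164 and 1435 CPM at 72 h (log2 change 9.35 ± 1.43 SE, adjusted p = 4.91e-06). Where a gene was unlisted in a library, the size of its log2 change depends on the 5 reads entered for it.

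Among genes unlisted in both 24 h libraries, Atg8b, a testis copy of an autophagy protein, had 919 and 750 CPM at 72 h (adjusted p = 2.63e-09). Acam, a testis relative of calmodulin, reached 669 and 452 CPM from unlisted levels (adjusted p = 2.57e-07). The sperm leucyl aminopeptidase S-Lap2 had unlisted and 5.01 CPM at 24 h and 1578 and 2221 CPM at 72 h (adjusted p = 1.2e-06). The Mst84D and S-Lap families have near-identical members, so reads may be split between them. The uncharacterised genes CG43439, CG11106, CG42393, CG12699 and CG4218 belong to the same 12 rises. The naming rule took only genes whose groups do not overlap. For CG42500, another of the 12, all 72 h reads came from sites inside another gene on the same strand, and without these sites its log2 change was 0.26 (adjusted p = 0.777).

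Of the rises in genes listed in all 4 libraries, where no 40S value was entered, the largest were in Mst84Dd and exu. Their SE and adjusted p draw on a spread shared with other pools, where a gene can be unlisted and entered at 5 reads. Mst84Dd, of a family of sperm tail proteins, went from 2.19 and 12.9 CPM to 4581 and 2062 CPM (log2 change 9.13 ± 1.33 SE, adjusted p = 2.22e-06). The gene exu encodes an RNA-binding protein needed for spermatogenesis and for mRNA localisation in the oocyte. Its level went from 2.79 and 5.17 CPM to 2032 and 2157 CPM (log2 change 9.07 ± 1.11 SE, adjusted p = 1.41e-07). At 48 h exu was between the times, at 677 and 417 CPM. CG3124 stood at 2.79 and 17.9 CPM at 24 h and already at 1990 and 1203 CPM at 48 h, against 1887 and 2255 CPM at 72 h (log2 change from 24 h 8.13, adjusted p = 1.43e-08). The others named among these 10 were Mst98Cb, S-Lap4, CG16782, CG7164, CG9389, CG5968 and CG9920, with log2 changes of 6.92 to 8.05. For CG7164, 73.8% of the 24 h reads came from sites inside another gene on the same strand, and 0% of the 72 h reads.

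The largest fall was in RpL41, which encodes the smallest protein of the 60S subunit. Its level was 14228 and 16519 CPM at 24 h, 8256 and 9350 CPM at 48 h and 451 and 1291 CPM at 72 h (log2 change -4.33 ± 0.74 SE, adjusted p = 2.51e-05). Both 72 h values lay below both values of each earlier time, and the call held in every fit that left out 1 of the 4 libraries. The gene lies at chr2R:24903416-24903935 (dm6). Eaat1, a glutamate transporter of glial cells, fell from 132 and 126 CPM to 15.5 and 4.67 CPM (log2 change -3.90, adjusted p = 0.000315). The transcription factor gene sug fell from 173 and 258 CPM to 20.6 and 9.98 CPM (log2 change -3.88 ± 0.64 SE, adjusted p = 1.43e-05). CG7702 went from 99.0 and 83.0 CPM to 7.0 and 6.8 CPM (log2 change -3.70, adjusted p = 5.71e-06). CG15117, CG11852, CG14275, PPP4R2r and CG4829 fell with log2 changes of -3.85 to -3.45. The other 3 calls among the 12 largest falls rested on single libraries, since faf and rho-4 lost the call without 72 h replicate 2 (adjusted p of 0.254 and 0.0963) and Hsp70Aa without 24 h replicate 2 or 72 h replicate 1 (adjusted p up to 0.109).

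**Figure D2:**
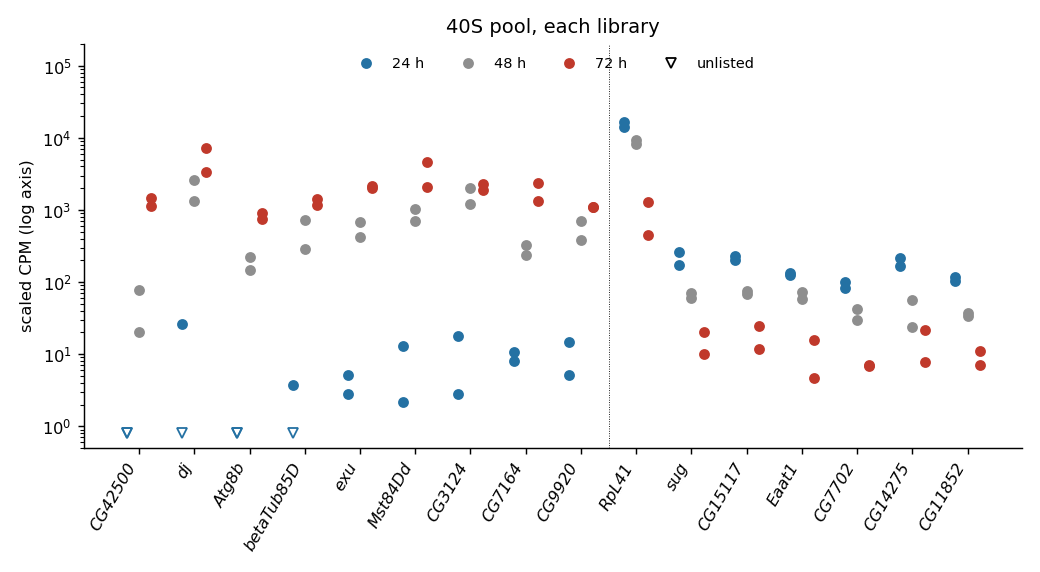
Level in CPM (log axis) of 16 named genes in each 40S library at 24 h, 48 h and 72 h, 1 point per library and an open triangle where a gene was unlisted, with rises left and falls right of the dotted line. RpL41 drops from 14228 and 16519 CPM to 451 and 1291 CPM, while exu climbs from 2.79 and 5.17 CPM to 2032 and 2157 CPM.

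Many genes listed for the spermatocyte and spermatid programme were called higher, where 22.6% of all genes were. Most of the spermatid, cup and comet and testis TAF genes were listed in both 40S libraries at only 1 of the 2 times. Of 44 tested genes of spermatid and sperm structure (of 47 in the list), 41 rose and 0 fell, with a median log2 change of 7.08. Their summed level went from 279 and 640 CPM to 31770 and 28544 CPM. With genes unlisted at 1 time set at 10 reads there, the median was 6.72, and over the 13 members listed in all 4 libraries it was 4.05. As 31 of the 44 were listed in both 40S libraries at 1 time only, the count describes them and is no support. The protamine ProtA, a sperm chromatin protein, went from unlisted and 1.78 CPM to 272 and 180 CPM, and Mst77F, a linker histone-like protein of sperm, from unlisted and 25.7 CPM to 867 and 1693 CPM (adjusted p of 2.84e-07 and 1.24e-06).

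The cup and comet genes, a set transcribed after meiosis, had 11 of 14 tested members higher and 0 lower, with a median log2 change of 5.22 (4.36 with unlisted genes at 10 reads). Here 12 of the 14 were listed in both 40S libraries at 1 time only, so the count is a description. The 1 member listed in all 4 libraries, m-cup, did not pass (adjusted p = 0.191). The gene soti, whose product limits caspase activity in spermatids, was unlisted at 24 h and had 211 and 180 CPM at 72 h (adjusted p = 4.75e-10). The gene w-cup went from unlisted and 3.71 CPM to 824 and 693 CPM (adjusted p = 1.57e-06). All 11 calls held in every fit without 1 of the 4 libraries.

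Of the 9 tMAC genes 7 rose and 0 fell, with a median log2 change of 3.91, and of 2.26 over the 6 listed in all 4 libraries. The gene aly, a tMAC component and activator, rose from 4.78 and 12.9 CPM to 196 and 151 CPM (log2 change 4.41 ± 0.60 SE, adjusted p = 7.47e-07). The zinc finger subunit gene topi went from unlisted and 1.78 CPM to 78.9 and 69.9 CPM (adjusted p = 1.48e-09). Of the 4 testis TAF genes tested 3 rose, among them sa, unlisted at 24 h and at 141 and 86.2 CPM at 72 h (adjusted p = 1.68e-09). These 3 were listed in both 40S libraries at 1 time only, and the member listed in all 4 libraries, mia, had a log2 change of -1.09 (adjusted p = 0.502). By 48 h aly was already at 228 and 200 CPM.

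Of 23 spermatocyte and meiotic regulators 12 rose and 0 fell, with a median log2 change of 2.20 (1.28 over the 14 listed in all 4 libraries), and 8 of the 12 calls held in every fit without 1 of the 4 libraries. The 12 were 52.2% of those tested, against 22.6% of all genes. The best covered was fest, which encodes a partner of the RNA-binding protein Rbp4 in holding back translation of cyclin B in spermatocytes. It rose from 77.7 and 60.9 CPM to 4282 and 3371 CPM, a 55.2-fold difference (log2 change 5.79 ± 0.48 SE, adjusted p = 4.48e-10). Rbp4 itself rose less, from 25.5 and 35.0 CPM to 168 and 113 CPM, and stood higher at 48 h, at 216 and 285 CPM (log2 change from 24 h 2.20, adjusted p = 0.000862). CycB, the cyclin of the meiotic divisions, rose from 5.38 and 5.33 CPM to 92.3 and 190 CPM (log2 change 4.61, adjusted p = 7.64e-05). The CPEB family gene orb2 rose from 22.5 and 13.6 CPM to 183 and 243 CPM, with 29.2 and 31.3 CPM at 48 h (log2 change 3.60, adjusted p = 0.000586). The gene bol, needed for translation of the meiotic Cdc25 phosphatase twe, rose from 200 and 98.8 CPM to 461 and 1014 CPM (log2 change 2.28, adjusted p = 0.000511), while its log2 change in lysate was 7.76.

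**Figure D3:**
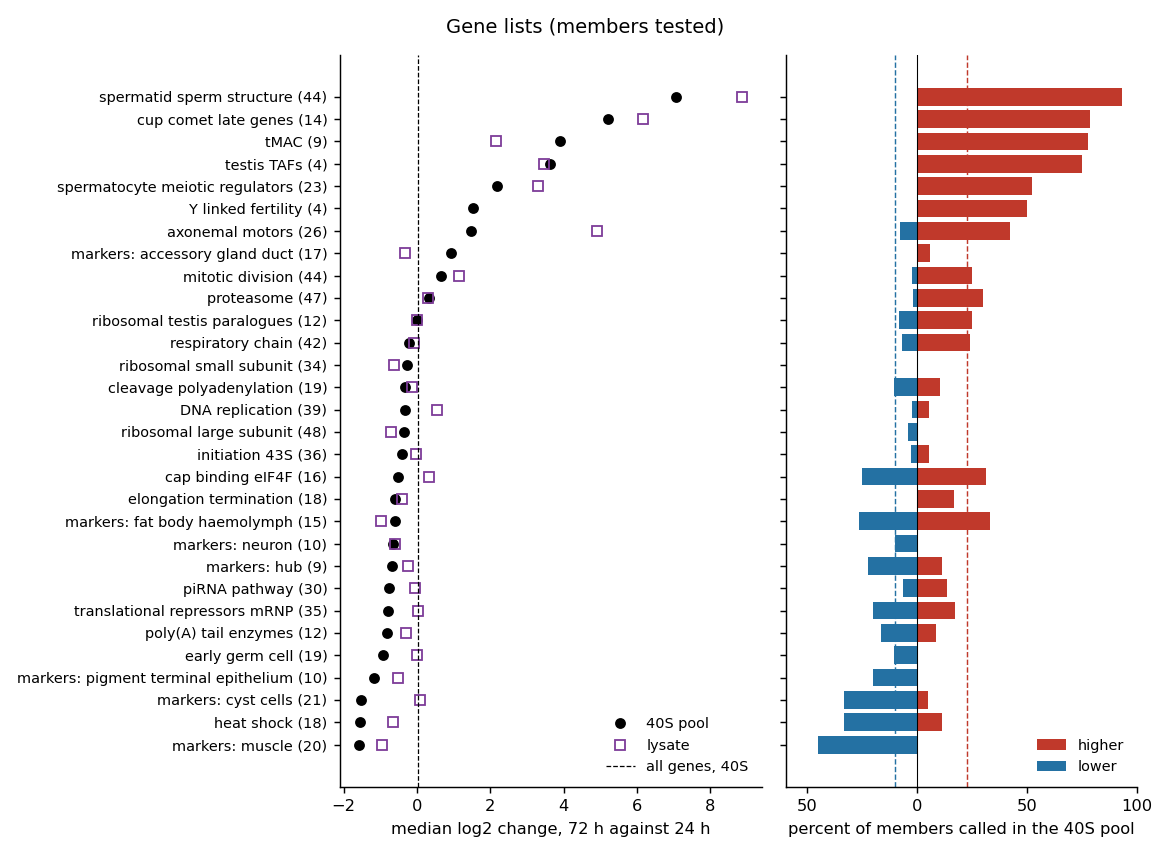
Left, median log2 change from 24 h to 72 h of each gene list in the 40S pool (filled circles) and in lysate (open squares), with the number of members tested in brackets and the median over all genes dashed. Right, percent of the members called higher (red, to the right) and lower (blue, to the left) in the 40S pool, with the shares over all genes, 22.6% and 10.3%, dashed. The spermatid list has the highest 40S median, 7.08, and the muscle list the lowest, -1.57.

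Ribosomal protein genes gave few calls in either direction. Of 34 small subunit ribosomal protein genes tested 0 were called higher and 0 lower at the adjusted threshold, and of 48 large subunit genes 0 were called higher and 2 lower, with medians of -0.28 and -0.36. Both medians turned positive, at 0.16 and 0.08, under median-of-ratios scaling, where the median over all genes was 0.47. In lysate, 13 of 34 and 27 of 44 were called lower, where 9.4% of all genes tested in both were. RpS2, for example, had 8829 and 3452 CPM at 24 h and 7026 and 4586 CPM at 72 h, groups that overlap. Of 12 genes listed as testis paralogues or relatives of ribosomal proteins, 3 rose (25.0%, near the 22.6% of all genes) and 1 fell (8.3%, against 10.3%). RpL10Aa rose from 4.98 and 1.78 CPM to 204 and 93.9 CPM (log2 change 5.47, adjusted p = 3.89e-05), and RpLP0-like, named for its likeness to a stalk protein, fell from 109 and 147 CPM to 35.6 and 19.3 CPM (log2 change -2.27, adjusted p = 0.000371).

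Genes of cap binding and the eIF4F complex went both ways, with 31.2% higher and 25.0% lower, against 22.6% and 10.3% of all genes. Of 16 tested 5 rose and 4 fell, with a median log2 change of -0.52, and 4 rises and 2 falls held in every fit without 1 of the 4 libraries. The eIF4E proteins bind the cap, and Drosophila has several copies that are found mostly in testis. Of these, eIF4E5 was unlisted at 24 h and had 331 and 371 CPM at 72 h (adjusted p = 8.3e-09), and eIF4E4 was unlisted and had 227 and 183 CPM (adjusted p = 3.08e-08). At 48 h eIF4E5 stood at 486 and 521 CPM, whereas eIF4E4 stood at 9.21 and 7.46 CPM. The general eIF4E1 had 240 and 361 CPM at 24 h and 255 and 223 CPM at 72 h, groups that overlap (log2 change -0.30, adjusted p = 0.632).

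The eIF4H proteins assist the helicase eIF4A, and their 2 genes moved in opposite directions. Thus eIF4H2 was unlisted at 24 h and reached 277 and 250 CPM (adjusted p = 2.77e-08), while eIF4H1 fell from 1483 and 1399 CPM through 571 and 498 CPM at 48 h to 249 and 288 CPM (log2 change -2.43 ± 0.45 SE, adjusted p = 6.22e-05). Thor, the 4E-BP that blocks binding of eIF4E to eIF4G, fell from 157 and 173 CPM to 34.6 and 24.4 CPM (log2 change -2.50, adjusted p = 0.000724). The cytoplasmic poly(A)-binding protein gene pAbp had 10585 and 10048 CPM at 24 h and 2732 and 3837 CPM at 72 h (log2 change -1.67, adjusted p = 0.0245), a call lost in each fit that left out 1 of the 4 libraries (adjusted p up to 0.152). The same held for eIF4G2, a testis eIF4G needed for meiosis (adjusted p = 0.0259, up to 0.161). For pAbp, a site inside the gene was listed under its neighbour Pcl, so its reads are not in the pAbp level. That site went from 12.5 and 18.1 CPM at 24 h to 3477 and 2007 CPM at 72 h. Its part in the fall of pAbp was not tested.

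Of 36 genes of the 43S complex, the small subunit with its initiation factors, 2 rose in every such fit, eIF3d2 and eIF3g2. The gene eIF3d2 went from unlisted and 5.81 CPM to 54.0 and 75.4 CPM (adjusted p = 3.96e-05), and its general counterpart eIF3d1 had 145 and 204 CPM at 24 h and 138 and 60.3 CPM at 72 h (log2 change -0.91, adjusted p = 0.376). The list as a whole had 2 genes higher (5.6%, against 22.6% of all genes) and 1 lower (2.8%, against 10.3%). Its median was -0.39 (0.04 under median-of-ratios scaling). Of 18 elongation and termination genes 3 rose (16.7%, against 22.6% of all genes) and 0 fell. The rises included the testis copies of the nascent chain complex betaNACtes1 and betaNACtes2 (log2 changes 3.81 and 2.78, adjusted p of 0.00555 and 0.00122).

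Messages for proteins that hold back or modify mRNA were mixed. Of 35 translational repressors and mRNP proteins 6 rose and 7 fell, with a median of -0.80. The 4 rises that held without any 1 library were those of fest, Rbp4, bol and orb2 above, and none of the 7 falls held. Of 12 genes that act on poly(A) tails, Tailor, a uridylating enzyme, rose from 21.9 and 46.0 CPM to 388 and 248 CPM (log2 change 3.27, adjusted p = 0.00174). Rga, the NOT2 subunit of the CCR4-NOT deadenylase, fell from 39.8 and 34.6 CPM to 3.06 and 4.89 CPM (log2 change -3.22, adjusted p = 0.000478). Of 19 cleavage and polyadenylation genes 2 rose (10.5%, against 22.6% of all genes) and 2 fell (10.5%, near the 10.3% of all genes). Their median was -0.33 (0.12 under median-of-ratios scaling).

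Of 47 proteasome genes 14 rose (29.8%, against 22.6% of all genes) and 1 fell, with a median of 0.34. All 14 were paralogues of general subunit genes, and 13 of the 47 were listed in both 40S libraries at 1 time only. The testis copy Prosalpha4T2 was unlisted at 24 h and had 198 and 115 CPM at 72 h (adjusted p = 3.39e-08), while the general Prosalpha4 had 90.4 and 52.2 CPM and then 63.9 and 27.8 CPM, groups that overlap. The ATPase subunit gene Rpt3 fell from 118 and 141 CPM to 36.5 and 38.2 CPM (log2 change -1.78, adjusted p = 0.00477). Of 42 respiratory chain genes 10 rose (23.8%, near the share of all genes) and 3 fell, with a median of -0.21 (0.23 under median-of-ratios scaling). The 10 were again paralogues of general genes. COX4L, a copy of cytochrome c oxidase subunit 4, went from unlisted and 2.75 CPM to 278 and 214 CPM (adjusted p = 4.06e-07), while COX4 had 417 and 476 CPM and then 469 and 249 CPM (log2 change -0.39, adjusted p = 0.773). Of the 3 respiratory falls 0 held in every fit that left out 1 of the 4 libraries.

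Of 26 axonemal and motor genes 11 rose (42.3%, against 22.6% of all genes) and 2 fell (7.7%, against 10.3%). Their median was 1.49, and -0.07 over the 6 listed in all 4 libraries. As 15 of the 26 were listed in both 40S libraries at 1 time only, the count is a description. The kinesin gene Klp59D went from unlisted and 7.91 CPM to 352 and 290 CPM (adjusted p = 1.36e-05), and the dynein light chain gene ctp fell from 803 and 872 CPM to 298 and 206 CPM (log2 change -1.76, adjusted p = 0.00183). Of 44 mitotic division genes 11 rose (25.0%, near the 22.6% of all genes) and 1 fell, with a median of 0.65. Of the rises 4 held in each fit without 1 library. Of 39 DNA replication genes 2 rose and 1 fell, and of 30 piRNA pathway genes 4 rose and 2 fell, with medians of -0.33 and -0.76. In every fit without 1 library 0 of the calls in these 2 lists held. Of 4 tested Y-linked fertility genes 2 rose.

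Of 19 genes of the earliest germ cells tested 0 rose, against 22.6% of all genes. The 2 that fell were 10.5%, near the 10.3% of all genes, and the median was -0.92. The RNA helicase gene vas had 7.77 and 5.97 CPM at 24 h and was unlisted at 72 h (adjusted p = 0.0774), and nos had 47.6 and 33.1 CPM at 24 h and 15.5 and 13 CPM at 72 h (log2 change -1.47, adjusted p = 0.0525). For mei-P26, which limits spermatogonial divisions, 387 and 252 CPM at 24 h and 106 and 87.3 CPM at 72 h gave a log2 change of -1.70 (adjusted p = 0.00814, up to 0.103 without 1 library). Of the 2 falls 0 held in every fit without 1 library.

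Of 18 heat shock genes 2 rose (11.1%, against 22.6% of all genes) and 6 fell (33.3%, against 10.3%), with a median of -1.55. Hsp60B, a chaperonin needed in spermatogenesis, was unlisted at 24 h and had 164 and 408 CPM at 72 h (adjusted p = 1e-07). Hsp23 went from 367 and 695 CPM to 127 and 31.0 CPM (log2 change -3.01, adjusted p = 0.000844), and Hsc70-4 from 3608 and 4203 CPM to 1802 and 771 CPM (log2 change -1.73, adjusted p = 0.00841). Of the 6 falls 0 held in every fit that left out 1 of the 4 libraries, and the adjusted p reached 0.0645 for Hsp23 and 0.196 for Hsc70-4. Hsp83 had 1004 and 1483 CPM and then 551 and 524 CPM (adjusted p = 0.355).

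The summed levels of muscle, cyst cell, hub and pigment cell markers were lower at 72 h, while those of accessory gland and neuron markers overlapped between the times. Of 20 muscle genes tested 0 rose and 9 fell (45.0%, against 10.3% of all genes), with a median of -1.57. Their summed level went from 4233 and 4202 CPM to 1622 and 1526 CPM. Of the 9 falls 5 held in every fit without 1 library, and 6 genes were lower with median-of-ratios scaling. The muscle myosin gene Mhc fell from 75.7 and 83.6 CPM to 14.9 and 6.37 CPM (log2 change -3.02 ± 0.58 SE, adjusted p = 0.000119). Of 21 markers of cyst cells, the somatic cells that enclose the germ cells, 1 rose and 7 fell (33.3%, against 10.3% of all genes). Their median was -1.52 and their sum 1186 and 1220 CPM at 24 h against 559 and 518 CPM at 72 h. Of the 7 falls 3 held in every fit without 1 library, and 3 genes were lower with median-of-ratios scaling. ImpL2, an insulin-binding protein, fell from 310 and 359 CPM to 50.1 and 62.7 CPM (log2 change -2.57, adjusted p = 5.81e-05). The cyst cell factor tj had 56.6 and 80.1 CPM and then 17.9 and 25.3 CPM (log2 change -1.66, adjusted p = 0.0765).

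Of 15 fat body and haemolymph markers 5 rose (33.3%, against 22.6% of all genes) and 4 fell (26.7%, against 10.3%). Their sum went from 2467 and 3110 CPM to 842 and 972 CPM. The alcohol dehydrogenase gene Adh made up most of that sum, with 2025 and 2663 CPM at 24 h and 231 and 333 CPM at 72 h (log2 change -3.07, adjusted p = 0.00123). Without Adh the sum was 442 and 447 CPM at 24 h and 611 and 639 CPM at 72 h. Of the 5 rises only that of Fbp2 held in every fit without 1 library, and without sites inside another gene its log2 change was 0.26 (adjusted p = 0.759). Hub markers summed to 1028 and 799 CPM and then 354 and 429 CPM (1 higher and 2 lower of 9). Most of that sum at 24 h was Imp, and without it the sum was 243 and 223 CPM and then 127 and 178 CPM. Pigment cell and terminal epithelium markers summed to 305 and 312 CPM and then 117 and 142 CPM (0 higher and 2 lower of 10). Neuron markers summed to 902 and 506 CPM and then 471 and 730 CPM (0 higher and 1 lower of 10), and accessory gland markers to 620 and 346 CPM and then 604 and 876 CPM (1 higher and 0 lower of 17). In all 4 libraries 5 of 18 accessory gland markers (Acp26Ab, Acp29AB, Acp76A, Ebp and Gld), 2 of 18 fat body markers (Lsp1alpha and NimC1), 2 of 12 pigment markers (ry and st) and 1 of 22 cyst cell markers (Dh44-R2) were unlisted. The part of these cells in the lower calls of other genes was not tested.

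Many rises of the 40S pool were also called in total RNA. Of 2321 genes called higher in the 40S pool and tested in lysate, 2196 (94.6%) were also called higher in lysate, or 66.4% of the lysate's higher genes among those tested in both, where 33.2% of all such genes were called higher. Of 1061 genes called lower, 308 (29.0%) were also called lower in lysate, or 33.0% of its lower genes, where 9.4% of all were. Over the 10339 genes tested in lysate, 33.1% were called higher and 9.35% lower. In the 80S pool 79.9% of the higher genes were also called higher (83.4% of the 80S pool's higher genes) and 19.0% of the lower genes lower (52.6% of its lower genes), where 21.6% and 3.74% of all genes were called in that pool. In the pool of 4 or more ribosomes these shares were 68.6% and 4.4% (83.9% and 34.5% of that pool's lists), where 18.5% and 1.32% of all genes were called. A call past the threshold in the 40S pool and not in another does not show a difference between them, which was tested directly below.

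Tested as a difference of differences, the 40S change departed from the 80S change in 33 genes (0.306%), 7 higher (0.065%) and 26 lower (0.241%) in the 40S pool. Without the 60S pool in the fit these were 150 and 154. Of the 26, 13 were unlisted in all 4 40S libraries, and 2 of the 7 and 2 of the 26 were listed in all 8 libraries compared. Against the free RNA pool the count was 9 (0.0835%), 1 higher and 8 lower. Of the 8, 7 were unlisted in all 4 40S libraries, and the 1 was unlisted in all 4 free libraries. Of the calls against the pool of 4 or more ribosomes, 10 of the higher and 27 of the lower were listed in all 8 libraries compared. Their count was 214 (1.99%), 137 higher (1.27%) and 77 lower (0.714%). That split was 150 and 38 with scaling by totals, 369 and 39 with median-of-ratios scaling, 65 and 66 with unlisted genes at 1 read, and 111 and 121 without 40S 72 h replicate 1. In every fit without 1 of the 4 40S libraries, 12, 0 and 36 of these calls held, in that order.

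Among the named genes, RpL41 had the widest departure from the 80S pool. While it fell in the 40S pool, its 80S level was 5567 and 7283 CPM at 24 h and 6836 and 9155 CPM at 72 h. In the free pool it had 24171 and 37574 CPM and then 19773 and 21683 CPM. The 40S change was lower than the 80S change by -4.64 ± 1.05 SE on the log2 scale (adjusted p = 0.0482), and the adjusted p reached 0.151 when 1 library was left out. Of the 33 calls against the 80S pool, 2 were kept without voom weights and 3 among genes listed in both libraries of a 40S group.

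The named departures that held in every such fit were those of CG43675, CYLD, Rab3-GAP and eIF4H1. CG43675 rose in the 40S pool from 41.8 and 32.8 CPM to 563 and 424 CPM, while its 80S level was 156 and 118 CPM and then 87.9 and 129 CPM (difference 4.08 ± 0.67 SE, adjusted p = 0.00462). CYLD, a deubiquitinase, went from 2.19 and 7.59 CPM to 97.3 and 100.3 CPM in the 40S pool and from 17.7 and 23.1 CPM to 15.6 and 14.7 CPM in the pool of 4 or more ribosomes (difference 4.98, adjusted p = 0.00472). Rab3-GAP, a regulator of the Rab3 GTPase, went from 10.6 and 14.2 CPM to 1033 and 1056 CPM in the 40S pool and from 48.1 and 20.9 CPM to 73.7 and 117 CPM in the heavy pool (difference 4.85, adjusted p = 0.00472). While eIF4H1 fell in the 40S pool, its level in the heavy pool was 275 and 257 CPM at 24 h and 432 and 678 CPM at 72 h. That heavy pool change did not pass the threshold (log2 change 1.025, adjusted p = 0.119 in limma), and the difference of the changes did (-3.45 ± 0.63 SE, adjusted p = 0.00472).

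**Figure D4:**
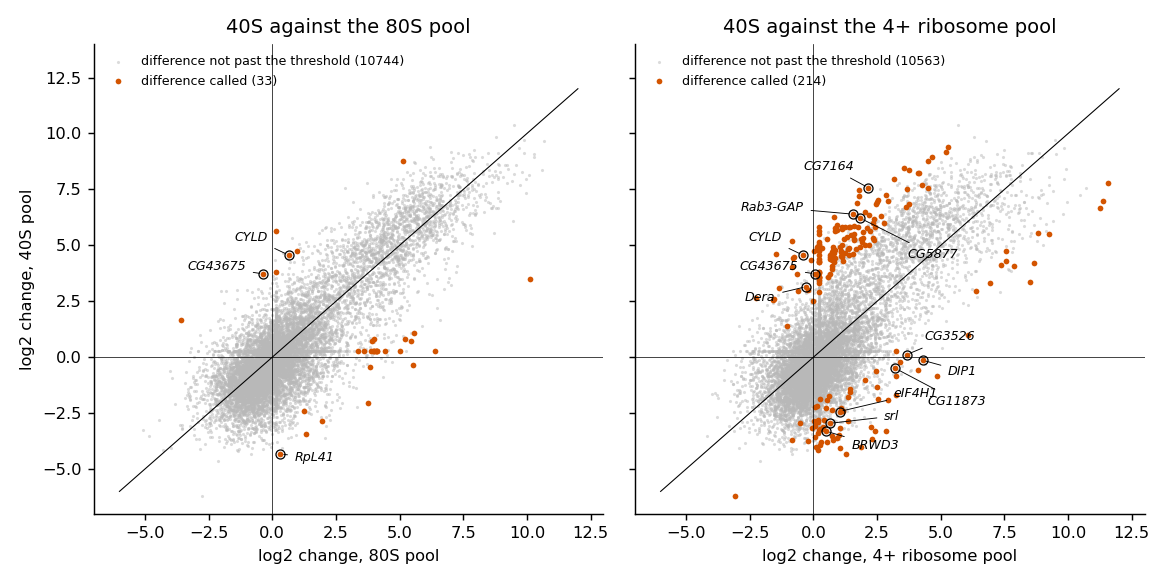
Log2 change from 24 h to 72 h in the 40S pool (vertical axis) against that in the 80S pool (left) and in the pool of 4 or more ribosomes (right) for 10777 genes, 1 point per gene, with the line of equal change. The 33 and 214 genes whose changes differed past the threshold are orange, and named ones are circled. RpL41 lies at -4.33 in the 40S pool, and CG43675 and CYLD lie above the line in both panels.

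The 40S pool also changed in which 3′ end of a message it held. Of 3794 genes with a pair of sites listed under the same codon position, 968 (25.5%) shifted past the threshold. Toward the proximal site, the one nearer the 5′ end of the gene, 871 shifted (23% of all pairs), and 97 toward the distal site (2.56%). On the minus strand, with 1954 of the pairs, that position was nearly always a start codon. The 2 sites of such a pair need not follow the same stop codon. In every fit without 1 of the 4 libraries, 324 of the 968 calls held. The median change of log2(proximal/distal) over all pairs was 1.48. Among pairs over 100 nt apart, 772 of 3117 shifted to the proximal site (24.8%) and 85 to the distal site (2.7%). In the 772, the proximal site lay a median of 155 nt and the distal site 578 nt from the stop codon. The proximal reads rose at least 2-fold in 657 and the distal reads fell at least 2-fold in 560, with both in 447. These pairs were selected for that ratio, and over all 3117 pairs proximal reads rose at least 2-fold in 1242 and distal reads fell at least 2-fold in 1719. The gene's own level passed no threshold in 617 of the 772 and in 2474 of all 3117 pairs. Some sites lay inside another gene on the same strand, in 51 of the 85 distal shifts and 38 of the 772 proximal ones, and without all such pairs 851 of 3522 were called (808 proximal and 43 distal).

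The sites of apt, a transcription factor gene, lie 152 and 999 nt from its stop codon. Its proximal site was unlisted at 24 h and held 141 and 154 reads at 72 h, and its distal site held 80 and 172 reads and was then unlisted (log2 ratio change 9.44, adjusted p = 0.000153). Sites under 10 reads are unlisted, so shares below are of listed reads, and 0% or 100% means that a site was unlisted and not that it had no reads. The share of the proximal site of Mvb12, an ESCRT component gene, went from 0% and 0% to 93.4% and 91.8% (log2 ratio change 9.38, adjusted p = 1.26e-05). Among the listed regulators, orb, the CPEB gene known from the oocyte, went from 0% and 15% proximal to 93.5% and 93.2% (adjusted p = 1.17e-05). CycB3, a mitotic cyclin gene, went from 11.5% and 13% to 78.4% and 94.2% (adjusted p = 3.01e-06). The translational repressor gene smg went from 0% and 0% to 80.5% and 85.7% (adjusted p = 3.81e-05), with a log2 change in gene level of 0.11 (adjusted p = 0.911). These genes were picked with their values in view, and the shares of the times did not overlap in 1358 of the 3117 pairs. Against 871 of all 3794 pairs, 6 of 12 spermatocyte regulators with a pair shifted to the proximal site, 5 of 11 cyst cell markers and 4 of 31 repressors and mRNP genes.

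Shifts to the distal site were rarer. CG10576 went from 100% and 100% proximal to 34.7% and 34.3% (log2 ratio change -7.43, adjusted p = 0.00321), and ScsbetaA, a subunit of succinyl-CoA synthetase, from 86.5% and 100% to 12% and 21.8% (log2 ratio change -5.80, adjusted p = 1.97e-05). ScsbetaA was named after its values were seen, since in 6 of the 8 largest distal shifts, those of Vps15, Desat1, Pcl, Dok, Coq8 and CG42363, the distal site lay inside the next gene. In Pcl that gene was pAbp, which had 10585 and 10048 CPM at 24 h and less at 72 h. The site inside pAbp went from 12.5 and 18.1 CPM to 3477 and 2007 CPM.

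The median shift was toward the proximal site in the other pools too. Among pairs kept by their site use in the 40S pool, it was largest in the 40S pool, lower in the free pool, and from the 80S pool on smaller with more ribosomes. Each site had to hold at least 5% of the pair in a 40S group. Whether that choice bears on the order of the pools was not tested. Over 2531 pairs over 100 nt apart with values in all pools compared, the median change of log2(proximal/distal) was 1.47 in the 40S pool, 1.10 in the free pool, 0.68 in the 80S pool, 0.54 with 2-3 ribosomes and 0.38 with 4 or more. The median proximal share in the 40S pool was 37.5% and 32.3% at 24 h and 63.9% and 62.8% at 72 h, and in the 80S pool 44.5% and 43.2% and then 59.4% and 59.8%. These medians are descriptions across genes. Gene by gene, the 40S change differed from the 80S change past the threshold in 1 of 3539 pairs (0.0283%), with 446 at an unadjusted p under 0.05.

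That pair belongs to Ypel, which encodes a member of the Yippee family of zinc-binding proteins and lies on the X chromosome, with sites 164 and 638 nt from the stop codon. In the 40S pool its proximal share went from 7.27% and 0% at 24 h through 37.9% and 34.0% at 48 h to 56.0% and 52.6% at 72 h. In the 80S pool the mean share was 14.8% at 24 h and 0% at 72 h, and in the free pool 8.41% and then 77.3%. The 40S change was higher than the 80S change by 7.12 ± 1.19 SE on the log2 ratio scale (adjusted p = 0.00837). The call was lost when sites were joined within 25 nt, when unlisted sites entered at 1 read and when only the pools compared entered the fit.

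**Figure D5:**
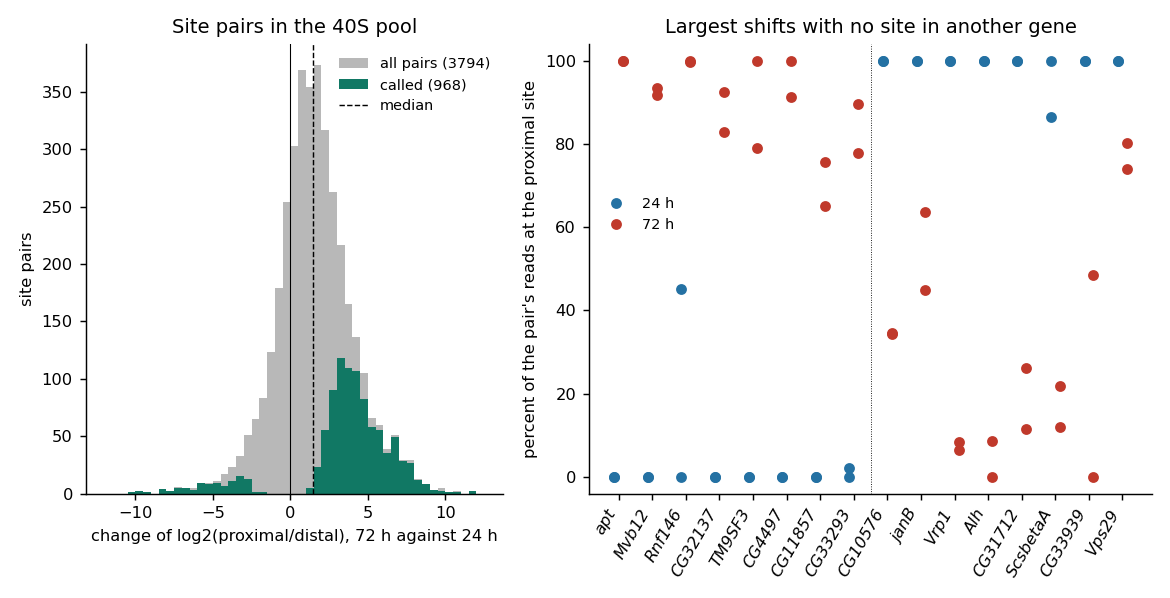
Left, number of site pairs by change of log2(proximal/distal) in the 40S pool, with all 3794 pairs grey, the 968 called pairs green and the median of 1.48 dashed. Right, percent of a pair's reads at the proximal site in each 24 h (blue) and 72 h (red) library for the 8 largest shifts each way with no site in another gene, proximal shifts left of the dotted line. Shares are of listed reads, so points at 0% and 100% mark pairs with a site under 10 reads, which is unlisted. In CG10576 both libraries go from 100% to 34.7% and 34.3%.

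Part of the change was in place at 48 h. Against 24 h, 2195 genes (20.4%) passed at 48 h, 1775 higher (16.5%) and 420 lower (3.9%), and against 48 h, 931 (8.64%) passed at 72 h, 793 higher (7.36%) and 138 lower (1.28%). For site pairs the counts were 695 of 3651 (19.0%) and 37 of 3651 (1.01%). These comparisons share libraries with the one above and are given side by side. The genes called higher encode proteins with a median of 319 amino acids, those called lower 492, and all tested genes 407.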

How the data were processed

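Bulk RNA 3′ ends were sequenced with QuantSeq 3′ FWD per the labels' protocols, and Bowtie 0.12.8 and dm6 are named in the submitters' processing notes. The authors deposited, for each codon position, cleavage sites with their reads packed in a text column, so the unit is other than a plain count. That position lay within 3 nt of an annotated stop codon for 99.92% of plus-strand entries. For 99.65% of minus-strand entries it lay within 3 nt of an annotated start codon. Distances from the stop codon were taken from the annotation. Sites hold at least 10 reads in the 36 fraction libraries and 20 in the 12 lysate libraries, and lie at least 51 nt apart. The handling of priming at internal A-rich stretches is not stated in the labels.

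Reads were summed per gene in Python 3.11.15, and 11977 of 11997 gene names matched the annotation. Entries naming several genes (at most 0.0428% of reads) were left out. Unlisted genes entered at 5 reads (10 in lysate). Genes listed in both libraries of at least 1 of 18 fraction groups entered limma (version 3.58.1, under R 4.3.3) with voom weights (trimmed mean scaling, Benjamini-Hochberg adjusted p under 0.05), with 36 fraction libraries sharing the spread (18 residual degrees of freedom). All p-values measure the spread between libraries. For sites, log2(proximal/distal) of the 2 most used sites was tested where a library had at least 30 reads at the pair, joining sites within 50 nt. Each site had to hold at least 5% of the pair in the 40S pool at 24 h or 72 h, and the other pools were compared on the pairs so kept. The tests were tried on simulated data. No sequence of the genome was used here.

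The comparison, its lists and its tests were chosen with earlier results of these data known. Named genes were the 12 largest rises and falls past the threshold, and the 10 and 5 largest among genes listed in all 4 libraries, with a mean log2 CPM of at least 4 and groups that do not overlap; differences between pools took up to 6 and site pairs over 100 nt apart 8 each way. The list members described were chosen with their values in view. Alternatives were other scalings, entries for unlisted genes, filters, sets of libraries sharing the spread, weights, blocks, site settings and leaving out each 40S library.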

Additional observations from a re-analysis of the deposited data

Results flagged for a closer look

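Each result here was listed because a test of the difference between the 40S change and that of another pool passed an adjusted p of 0.05 in limma, for a gene listed in all 8 libraries or for a pair of sites. No explanation was tested for any of them.

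Against the 80S pool, the 40S change from 24 h to 72 h was lower for RpL41 (log2 difference -4.64, adjusted p = 0.0482) and higher for CG43675 (4.08, adjusted p = 0.00462) and CYLD (3.92, adjusted p = 0.0499). Of these, CG43675 held in every fit without 1 40S library, while the adjusted p reached 0.151 for RpL41 and 0.301 for CYLD.

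Against the pool of 4 or more ribosomes, the 40S change was lower for DIP1 (-4.43, adjusted p = 0.0203), BRWD3 (-3.80, 0.0193), CG11873 (-3.72, 0.0365), srl (-3.60, 0.017), CG3526 (-3.54, 0.0148) and eIF4H1 (-3.45, 0.00472). DIP1, which encodes a double-stranded RNA-binding protein, had 67.5 and 68.0 CPM at 24 h and 72.6 and 52.3 CPM at 72 h in the 40S pool, against 34.3 and 14 CPM and then 360 and 519 CPM in the heavy pool. CG3526 had 106 and 148 CPM and then 155 and 119 CPM in the 40S pool, against 73.9 and 49.3 CPM and then 663 and 877 CPM. In both genes the 40S groups overlap, and the heavy pool change passed the threshold (log2 changes of 4.29 and 3.66, adjusted p of 3.26e-05 and 5.15e-06 in limma).

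The 40S change was higher than that of the heavy pool for CG7164 (5.42, adjusted p = 0.0265), CYLD (4.98, 0.00472), Rab3-GAP (4.85, 0.00472), CG5877 (4.37, 0.0347), CG43675 (3.65, 0.00472) and Dera (3.43, 0.0329). In CG7164, 73.8% of the 40S reads at 24 h came from sites inside another gene on the same strand. Of the 12 genes named against the heavy pool, eIF4H1, CYLD, Rab3-GAP and CG43675 held in every fit without 1 40S library. The site pair of Ypel shifted toward its proximal site by 7.12 more in the 40S pool than in the 80S pool on the log2 ratio scale (adjusted p = 0.00837).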

How the results depend on the processing

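The 3547 genes called in the 40S pool ranged from 3273 to 4740 over the other settings and from 2685 to 3031 without 1 of its libraries. Counts of differences between pools moved more, and the cause was not tested. Against the 80S pool the 33 became 21 with scaling by totals, 55 with unlisted genes at 9 reads, 3 among genes listed in a 40S group, 5 with only the pools compared, 304 without the 60S pool and 2 without voom weights. Against the free pool the 9 became 17 with unlisted genes at 1 read, 14 with no filter, 124 without the 60S pool, and 0 with total or median-of-ratios scaling, with unlisted genes at 9 reads, among genes listed in a 40S group, with only the pools compared and without voom weights, where limma gave 1095, 1044, 1235, 920, 1840 and 848 at an unadjusted p under 0.05. Against 4 or more ribosomes the 214 became 408 with median-of-ratios scaling, 131 and 413 with unlisted genes at 1 and 9 reads, 336 with only the pools compared, 1222 without the 60S pool and 68 without voom weights. The 968 site pairs became 449 with only the 40S libraries. The 1 pair that differed from the 80S pool became 0 when sites were joined within 25 nt or unlisted sites entered at 1 read (423 and 512 unadjusted in limma), 2 at 9 reads and 6 with only the pools compared, Ypel not among the 6. Leaving out 1 40S library gave 17 to 51 genes against the 80S pool, 0 to 29 against the free pool, 60 to 232 against 4 or more ribosomes, 517 to 856 site pairs and 1 to 10 pairs against the 80S pool.

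Some alternatives were chosen after seeing the data. Without 60S 72 h replicate 2, which held 0.445 M reads in 1870 genes, the 3 pool counts were 204, 93 and 994. Without sites inside another gene, 3495 genes were called, and the exonuclease gene pcm reversed, with a log2 change of -0.30 (adjusted p = 0.808). The labels do not say that replicate numbers pair the samples: deviations of same-numbered 40S libraries at 24 h and 72 h had r = -0.224 over 1163 genes, and those of pools at the same time a median r of 0.122 (lowest -0.078). With the replicate block 3566 genes, 33, 7 and 202 differences, 967 site pairs and 1 pair difference were called, with the replicate block by time 3557 genes and 44, 9 and 248 differences, and with the 72 h numbers crossed 3535 genes. The 33 differences from the 80S pool with the replicate block shared 31 genes with the 33 reported. Of 3648 values of 217 named results under the alternatives, 3330 kept their call and direction, 317 kept the direction and lost the call, and 1 reversed. Genes under 10 reads in a library cannot be seen at this depth, and intervals cover neither reads lost at that limit nor PCR copies.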

Other observations

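The calls were spread unevenly over the chromosomes, as a description of genes that are not independent. On the X chromosome 18.9% of 1748 tested genes were called higher and 12.6% lower in the 40S pool at 72 h, on 2L 26.6% and 8.8% of 2101, and on chromosome 4 there were 7 higher and 14 lower of 65. Of 8 tested genes of the Y chromosome 6 were called higher and 0 lower. Over all genes tested 22.6% were higher and 10.3% lower.

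A small share of the 40S reads came from sites inside another gene on the same strand than the gene they were listed under, 1.38% and 0.81% at 24 h and 2.22% and 2.64% at 72 h.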
